A study of Mus musculus with 20 samples.

Results

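Ep300 encodes p300, a lysine acetyltransferase that acetylates histone H3 at lysine 27 (H3K27ac). The 10 genes described here are Ep300 itself and 9 other genes for acetyltransferases and an associated coactivator: Crebbp, Kat2a, Kat2b, Kat5, Kat6a, Kat6b, Kat7, Kat8 and Ncoa3. They were chosen by name, and the values were taken from every peak that overlapped a gene body of the GENCODE mouse annotation, release 21, or the 20 kb on either side of it. These windows held 977 of the 591292 peaks in the 12 peak lists, and the 10 genes were 10 of 21938 protein-coding genes. The question was whether the other acetyltransferase genes, Crebbp first among them, gained peaks of active chromatin when Ep300 was deleted.

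The lists came from lineage-negative (Lin-) bone marrow cells, in which H3K4me1, H3K4me3 and H3K27ac were mapped by chromatin immunoprecipitation and sequencing (ChIP-seq), with 1 library for each of 4 mouse genotypes and each mark. WT mice were Ep300 fl/fl without Cre, Ep300Δ/Δ mice were Mx1-Cre;Ep300 fl/fl, Tet2-/- mice were Ep300 fl/fl;Tet2-/- without Cre, and Ep300Δ/Δ Tet2-/- mice were Mx1-Cre;Ep300 fl/fl;Tet2-/-. All 4 groups were of C57BL/6 background, carried the floxed Ep300 allele and received 3 doses of poly(I:C), begun at 6 to 8 weeks of age, so the interferon response to poly(I:C) is common to the controls, whereas the Cre transgene is not. Mx1-Cre is induced by interferon and recombines in blood cells of every lineage and in some other tissues. The Lin- fraction was above 80% pure and mixes stem cells with progenitors of several lineages. The number of animals behind a library was not given in the sources used here.

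CBP, the product of Crebbp, and p300 form 1 family of closely related acetyltransferases that are recruited by transcription factors to enhancers and promoters. GCN5 and PCAF, the products of Kat2a and Kat2b, are the catalytic subunits of the SAGA and ATAC complexes, and the MYST family (Kat5, Kat6a, Kat6b, Kat7 and Kat8) acetylates other lysines of histones H3 and H4. Ncoa3 encodes a p160 coactivator that binds nuclear receptors and brings CBP and p300 to them. H3K27ac marks active promoters and enhancers, H3K4me1 marks enhancers, and H3K4me3 marks promoters.

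The following sequences carry the acetylation results. The promoters of Kat5, Kat7 and Kat8 had an H3K27ac peak in every genotype, and they are shown because each holds the ETS core CCGGAAG, in capitals on either strand, in the RefSeq window of 250 bases before to 50 after a start (GRCm38.p6). They lie at chr19:5610045-5610344 (minus strand), chr11:95310197-95310496 (minus strand) and chr7:127912267-127912566 (plus strand).
Kat5: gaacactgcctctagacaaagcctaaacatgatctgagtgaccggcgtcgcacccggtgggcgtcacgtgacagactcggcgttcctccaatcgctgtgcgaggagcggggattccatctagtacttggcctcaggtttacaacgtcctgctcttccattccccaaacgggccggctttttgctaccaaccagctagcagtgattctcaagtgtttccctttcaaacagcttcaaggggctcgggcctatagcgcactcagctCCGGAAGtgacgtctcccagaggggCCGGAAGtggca
Kat7: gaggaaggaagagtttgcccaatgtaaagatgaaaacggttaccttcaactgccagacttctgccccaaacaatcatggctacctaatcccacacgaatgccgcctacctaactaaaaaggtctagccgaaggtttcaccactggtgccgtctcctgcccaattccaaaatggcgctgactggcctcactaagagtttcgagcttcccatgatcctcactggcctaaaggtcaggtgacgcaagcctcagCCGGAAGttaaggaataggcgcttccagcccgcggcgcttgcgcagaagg
Kat8: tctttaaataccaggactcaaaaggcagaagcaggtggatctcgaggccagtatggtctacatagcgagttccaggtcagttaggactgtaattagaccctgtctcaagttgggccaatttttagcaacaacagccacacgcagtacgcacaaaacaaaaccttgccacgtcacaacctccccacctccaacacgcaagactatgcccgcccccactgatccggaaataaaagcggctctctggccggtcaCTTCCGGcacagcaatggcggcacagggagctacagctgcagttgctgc

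The Kat2a window at chr11:100712418-100712717 (minus strand) had no H3K27ac peak in any list and none of the 6 motifs searched, so it is printed without capitals.
Kat2a: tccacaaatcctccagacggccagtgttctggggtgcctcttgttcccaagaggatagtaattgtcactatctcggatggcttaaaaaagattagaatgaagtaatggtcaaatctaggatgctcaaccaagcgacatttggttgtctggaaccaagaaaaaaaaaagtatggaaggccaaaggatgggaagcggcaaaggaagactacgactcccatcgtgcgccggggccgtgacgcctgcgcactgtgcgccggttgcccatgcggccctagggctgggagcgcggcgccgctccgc

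The only H3K27ac peak at the Crebbp promoter was in the WT list, and the part of it outside the 5′ UTR, chr16:4213008-4213223 (minus strand), spans the 85 coding bases of the first exon, in capitals, and the start of intron 1. The only H3K27ac region gained after Ep300 deletion on both backgrounds lay in intron 1 of Ncoa3. It is shown as the 200 bases around its summit in Ep300Δ/Δ Tet2-/- cells, chr2:165993528-165993727 (plus strand), with capitals for the 51 bases that lie within 100 bp of the Ep300Δ/Δ summit as well.
Crebbp, WT peak: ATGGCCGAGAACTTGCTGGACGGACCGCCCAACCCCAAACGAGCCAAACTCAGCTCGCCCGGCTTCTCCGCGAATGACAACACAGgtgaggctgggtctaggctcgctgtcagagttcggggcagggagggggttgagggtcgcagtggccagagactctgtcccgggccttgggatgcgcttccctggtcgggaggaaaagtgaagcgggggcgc
Ncoa3, gained region: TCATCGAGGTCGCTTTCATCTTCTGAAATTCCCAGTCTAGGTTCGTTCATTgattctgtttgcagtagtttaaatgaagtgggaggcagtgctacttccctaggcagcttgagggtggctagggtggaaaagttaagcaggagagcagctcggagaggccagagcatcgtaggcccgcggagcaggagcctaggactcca

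RefSeq promoter windows were matched for 8 of the 10 genes, in 12 windows, and Kat6a and Ncoa3 had no entry. Motifs were searched on both strands in all 32851 promoter windows of this table. The ETS core was present in 8.86% of them. The RUNX motif, AACCACA, was present in 5.27%. The cAMP response element, TGACGTCA, was present in 1.79%. The NRF1 motif, GCGCATGC, was present in 2.71%. The SP and KLF motif, GGGGCGGGG, was present in 11.4%. The GATA motif, AGATAA, was present in 11.2%. Kat5 held 2 ETS matches in the window shown and 1 GATA match in its other window, and 1 Kat2b window held a RUNX match. The Crebbp and Ep300 windows held none of the 6 motifs. The Ep300 window and the other Kat5 and Kat8 windows overlapped an H3K27ac peak in every genotype without an ETS match. In the 200-base summit windows of the gained Ncoa3 regions searched, none of the 6 motifs was found. Over all such windows of the Ep300Δ/Δ and Ep300Δ/Δ Tet2-/- H3K27ac lists, 3.86% and 4.44% held the ETS core and 4.45% and 5.11% the GATA motif, so most windows of either list lack them too. A match says only that these letters are present.

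A peak is an interval in which the authors' caller found more immunoprecipitated reads than in the matched total H3 library, and its height is the fold enrichment over that background. Read depth cannot be read from peak lists and is unknown, so heights are given only as a rank (a percentile) within their own list. For each comparison, the peaks of both lists were merged into regions. A region was called shared when both lists had a peak in it, gained when only the Ep300-deleted list did, and lost when only the Ep300-intact list did. Each genotype had a single library for a mark, so no difference has a replicate check or a test, and a lost region is one that fell below the calling threshold, not one shown to lack the mark. The 95% Clopper-Pearson intervals given with shares cover counting error only.

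The lists differed in size, which bears on every gain and loss. The H3K27ac lists held 29659 peaks in WT, 22727 in Ep300Δ/Δ, 24539 in Tet2-/- and 18327 in Ep300Δ/Δ Tet2-/- cells. Peaks with a q-value above the stated 0.05 made up 7.17% of the Ep300Δ/Δ H3K27ac list and 0.78% to 0.9% of the other 3. The H3K4me1 lists held 107392, 90738, 98069 and 93465 peaks in the same order of genotypes. Peaks above that q-value made up 4.82% of the Ep300Δ/Δ H3K4me1 list and 0.532% to 2.84% of the other 3. Of 7 stem and progenitor marker genes, 6 or 7 had promoter H3K27ac in each genotype. Of 8 markers of the mature cells that the depletion removes, 4 had it in WT, 3 in Ep300Δ/Δ, 2 in Tet2-/- and 1 in Ep300Δ/Δ Tet2-/- cells, and Cd3e, Ms4a1, Ly6g and Cd8a had it in none. The part of this decline in the results was not tested. In a bulk sample, fewer cells of a type and less of a mark per cell cannot be told apart.

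Most of the 10 promoters kept an H3K27ac call whatever the genotype. A promoter was taken as 3000 bp on either side of any start of the gene. By that measure H3K27ac was called at 10 of 10 promoters in WT, 9 in Ep300Δ/Δ, 9 in Tet2-/- and 7 in Ep300Δ/Δ Tet2-/- cells, while H3K4me3 was called at 10 of 10 in all 4 genotypes. Over all 21938 protein-coding genes, 47.3%, 45%, 46.4% and 43.1% had promoter H3K27ac in the same order of genotypes, and 61.9% to 63.2% had promoter H3K4me3. Loss of the promoter call was seen at 1 of 10 genes (Crebbp) from WT to Ep300Δ/Δ, against 7.96% of protein-coding genes with a call in WT, and at 2 of 9 genes (Kat2a and Kat6a) from Tet2-/- to Ep300Δ/Δ Tet2-/-, against 10.2%. No promoter call was gained, at 0 of 9 genes and 0 of 7 genes, where 3.08% and 3.35% of protein-coding genes with a call gained theirs. The 3 promoters without a call in Ep300Δ/Δ Tet2-/- cells were those of the genes whose H3K27ac ranked lowest in WT, at the 23.1st (Crebbp), 13.5th (Kat2a) and 29.2nd (Kat6a) percentiles, whereas the other 7 ranked from the 67.9th to the 99.8th.

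**Figure D1:**
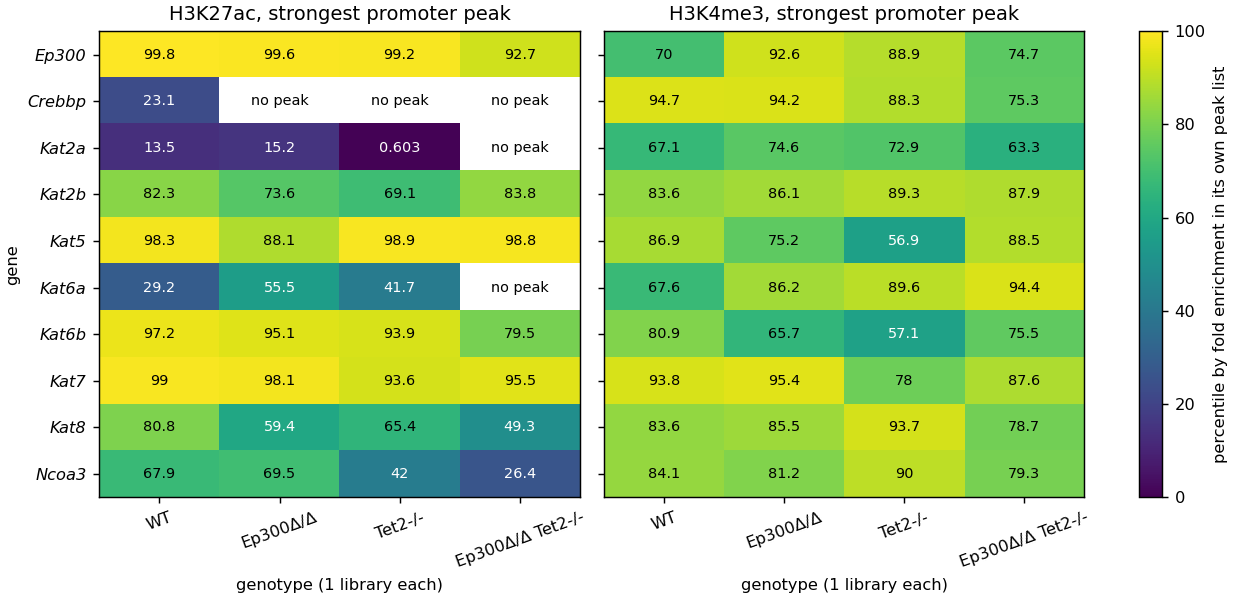
Percentile, within its own peak list, of the strongest H3K27ac peak (left) and H3K4me3 peak (right) at each gene's promoter, with 1 library per cell and white cells for no peak. H3K27ac is missing at Crebbp in 3 genotypes and at Kat2a and Kat6a in Ep300Δ/Δ Tet2-/- cells, and no H3K4me3 cell is empty.

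The Ep300 gene (chr15:81585351-81652077, plus strand) kept a strongly acetylated promoter in the mice in which it was deleted. Its strongest promoter H3K27ac peak ranked at the 99.8th percentile in WT, the 99.6th in Ep300Δ/Δ, the 99.2nd in Tet2-/- and the 92.7th in Ep300Δ/Δ Tet2-/- cells. All 3 promoter regions, at -755 to -197, -33 to 556 and 697 to 1825 bp from the first start, were present in every genotype. These peaks lie at the start of the gene and do not check the deletion. The other shared region lay at the promoter of L3mbtl2, a neighboring gene for a chromatin-binding protein.

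The 1 lost H3K27ac region of the Ep300 window was a weak peak in the upstream flank. It lay at chr15:81568933-81569273, -16418 to -16078 bp from the first start, with 5.41-fold enrichment (34.8th percentile) in WT, and was absent from the other 3 lists. No H3K27ac region was gained in the Ep300 window on either background. For H3K4me1, 4 of 8 regions were gained and 3 of 7 lost from WT to Ep300Δ/Δ, against 23.8% and 35.4% near all genes, and 4 of 9 were gained and 4 of 9 lost from Tet2-/- to Ep300Δ/Δ Tet2-/-, against 23.3% and 30.1%. One of them, 3116 to 3628 bp into the gene, was lost on both backgrounds. Another, at the L3mbtl2 promoter (chr15:81664718-81665021), was gained on both, at the 15.3rd percentile in Ep300Δ/Δ and the 62.3rd in Ep300Δ/Δ Tet2-/- cells. H3K4me3 was neither gained nor lost.

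Crebbp (chr16:4081328-4213997, minus strand), the closest relative of Ep300, gained no H3K27ac peak on either background. Its window held 2 H3K27ac peaks in WT and 1 in each of the other genotypes. The shared peak lay beyond the 3′ end of the gene at the promoter of Trap1, which encodes a mitochondrial chaperone, and ranked at the 83.7th percentile in WT, 96th in Ep300Δ/Δ, 98.9th in Tet2-/- and 91.1st in Ep300Δ/Δ Tet2-/- cells. The peak at the Crebbp promoter itself, 742 to 989 bp into the gene, was called in WT only, at 4.57-fold (−log10 q of 4.08). It was also absent from the Tet2-/- list, in which Ep300 was intact. The Trap1 peak was the single H3K27ac region of the window in either Ep300-deleted list, so 1 region could have been called gained.

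H3K4me3 at the Crebbp promoter was strong throughout. The region 655 to 1955 bp into the gene ranked at the 94.7th percentile in WT, 94.2nd in Ep300Δ/Δ, 88.3rd in Tet2-/- and 75.3rd in Ep300Δ/Δ Tet2-/- cells. A further small H3K4me3 region at 253 to 474 bp was called in Ep300Δ/Δ only, at the 27.3rd percentile. The promoter was thus marked by H3K4me3 in every genotype, including those without an H3K27ac call.

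For H3K4me1, the enhancer mark, the Crebbp window had more gained than lost regions on the Tet2-/- background. On the WT background the numbers were close, at 4 and 3. Its window held 11 H3K4me1 peaks in WT, 12 in Ep300Δ/Δ, 11 in Tet2-/- and 16 in Ep300Δ/Δ Tet2-/- cells. From WT to Ep300Δ/Δ, 3 of 9 regions were lost and 4 of 10 gained, against 35.4% and 23.8% of H3K4me1 regions near all protein-coding genes. Of these 4, 2 lay at promoters of Crebbp, 1 in the gene body and 1 beyond the gene at the promoter of Gm49547. From Tet2-/- to Ep300Δ/Δ Tet2-/-, 3 of 10 were lost and 8 of 15 gained, against 30.1% and 23.3%. All 8 of the latter lay in the gene body outside promoters, and they ranked from the 16.1st to the 66.4th percentile with a median of 49.6. One region, intronic and 13010 to 13259 bp into the gene, was gained on both backgrounds, at the 72.8th percentile in Ep300Δ/Δ and the 61.2nd in Ep300Δ/Δ Tet2-/- cells. No H3K27ac peak lay in the Crebbp gene body outside its promoter in any list.

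**Figure D2:**
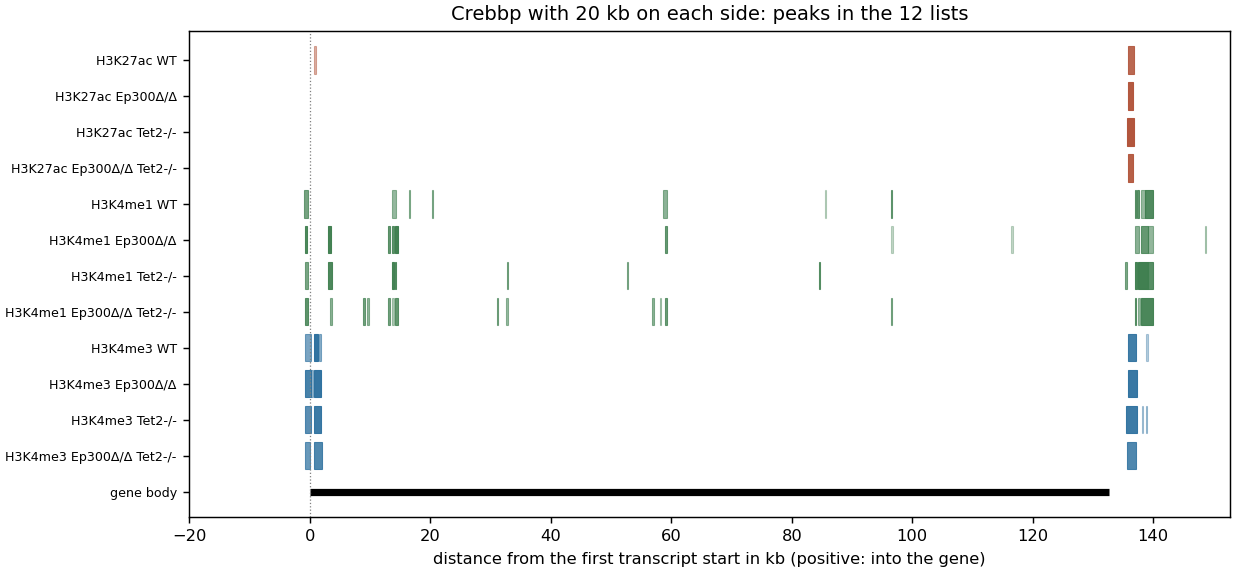
Peaks of the 12 lists along Crebbp and 20 kb on each side, by distance from the first transcript start in kb, with darker blocks for a higher percentile in the list. H3K27ac appears beside the start in WT only and beyond the end of the gene in all 4 genotypes, and the H3K4me1 blocks inside the gene are most numerous in Ep300Δ/Δ Tet2-/- cells.

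Kat2a (chr11:100704746-100712465, minus strand), which encodes GCN5, lies among other genes, and its H3K27ac peaks were weak. Its own promoter region, -1918 to -1486 bp from the first start and also within reach of Hspb9, ranked at the 13.5th percentile in WT, 15.2nd in Ep300Δ/Δ and 0.603rd in Tet2-/- and was not called in Ep300Δ/Δ Tet2-/- cells. The 1 region gained from WT to Ep300Δ/Δ, at 3.7-fold, lay at the promoter of Dhx58, a gene for a sensor of viral RNA, and overlapped peaks of both Tet2-deficient lists. The region lost from WT to Ep300Δ/Δ lay in the flank at -8905 to -8358 bp, at 4.52-fold. These counts moved with the setting. With lists cut to the shorter size, 3 of 4 regions were gained and 0 of 1 lost. At −log10 q of at least 5, 2 of 2 were lost, and 0 regions remained that could be gained. From Tet2-/- to Ep300Δ/Δ Tet2-/-, 2 regions were lost and none gained. The stronger, at 6.01-fold, was a separate region of the Dhx58 promoter. H3K4me3 remained called at the Kat2a promoter in all 4 genotypes, from the 63.3rd to the 74.6th percentile.

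Kat2b (chr17:53566861-53672720, plus strand), which encodes PCAF, had the most H3K27ac peaks of the 10 genes, with 9 in WT, 8 in Ep300Δ/Δ, 9 in Tet2-/- and 7 in Ep300Δ/Δ Tet2-/- cells. In each list 2 of these lay at the promoter of the neighboring Sgo1, which encodes a protector of centromeric cohesion. Its own regions at 594 to 1993 bp, 2686 to 3355 bp and, at an internal start, 20094 to 21445 bp were called in all 4. No H3K27ac region was gained, and 2 were lost on the WT background and 1 on the Tet2-/- background. The strongest lost region from WT to Ep300Δ/Δ was an intronic peak at chr17:53618222-53618544, 51361 to 51683 bp into the gene, called in WT only at 5.44-fold (35.4th percentile). H3K4me1 at that place was called in WT and in Tet2-/- cells and in neither Ep300-deleted list. The strongest lost from Tet2-/- to Ep300Δ/Δ Tet2-/- was a 4.64-fold peak across the first start, -9 to 181 bp. Of the H3K4me1 regions at Kat2b, 6 of 21 were lost and 4 of 19 gained on the WT background, where 35.4% and 23.8% of regions near all genes were lost and gained. On the Tet2-/- background 8 of 22 were lost and 1 of 15 gained, against 30.1% and 23.3%.

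Among the MYST genes, Kat5, Kat7 and Kat8 had an H3K27ac call at their first start in every genotype. Kat5 (chr19:5603014-5610237, minus strand), which encodes TIP60, had 2 H3K27ac regions in each list, with none gained or lost. The one at its start, -579 to 926 bp, ranked at the 98.3rd percentile in WT, 88.1st in Ep300Δ/Δ, 98.9th in Tet2-/- and 98.8th in Ep300Δ/Δ Tet2-/- cells. H3K4me1 around Kat5 went from 17 peaks in WT to 9 in Ep300Δ/Δ and from 10 in Tet2-/- to 8 in Ep300Δ/Δ Tet2-/- cells. As regions, 6 of 15 were lost and 0 of 9 gained on the WT background, against 35.4% and 23.8% near all genes. On the Tet2-/- background 5 of 10 were lost and 1 of 6 gained, against 30.1% and 23.3%.

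Kat7 (chr11:95274259-95310246, minus strand), which encodes HBO1, had its strongest H3K27ac at -1072 to 1137 bp, from the 93.6th to the 99th percentile over the 4 lists. A peak at an internal start, 16533 to 16862 bp into the gene, was called in WT only, at 4.86-fold. The 1 region lost from Tet2-/- to Ep300Δ/Δ Tet2-/-, at 3.22-fold, lay at the promoter of Tac4, a gene for a tachykinin peptide. Kat8 (chr7:127912516-127925837, plus strand), which encodes MOF, had 3 H3K27ac regions in WT and in Ep300Δ/Δ cells, all shared. Its strongest region in WT, at an internal start 9298 to 10740 bp into the gene, ranked at the 80.8th percentile there, the 10.8th in Ep300Δ/Δ (3.38-fold, with no peak there above a −log10 q of 2.65) and the 49.3rd in both Tet2-deficient lists. With a −log10 q of at least 5, or with 50% of covered bases required to be shared, 1 Kat8 region was lost from WT to Ep300Δ/Δ. The peak at its start, -595 to 521 bp, was called in all 4 genotypes, at the 54th percentile in WT, 59.4th in Ep300Δ/Δ, 65.4th in Tet2-/- and 30.7th in Ep300Δ/Δ Tet2-/- cells. The 1 region lost from Tet2-/- to Ep300Δ/Δ Tet2-/- was at the shared promoter of Vkorc1, Gm21974 and 2200002A13Rik, at 3-fold.

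The closely related genes Kat6a, for MOZ, and Kat6b, for MORF, differed in how strongly they were marked. Kat6a (chr8:22859535-22943259, plus strand) had 2 H3K27ac peaks in WT, 3 in Ep300Δ/Δ, 3 in Tet2-/- and 0 in Ep300Δ/Δ Tet2-/- cells, all at its promoter. From WT to Ep300Δ/Δ the peak across its start, -5 to 181 bp, was gained at 5.27-fold, and a peak at the same place was called in Tet2-/- cells. This gain was absent when a peak within 500 bp counted as present or when only regions with a peak above the 50th percentile were kept, and at −log10 q of at least 5 Kat6a instead lost 1 of 2 regions on this background. From Tet2-/- to Ep300Δ/Δ Tet2-/-, all 3 Kat6a regions were lost, against 36.3% of H3K27ac regions near all genes. The strongest was the one across the start, at 5.76-fold (41.7th percentile). At −log10 q of at least 5, with lists cut to the shorter size, or with the 500 bp setting, 1 of 1 region was lost. In the Ep300Δ/Δ Tet2-/- list, Kat6a was the only one of the 10 genes with no H3K27ac peak anywhere in its window. H3K4me3 stayed at the Kat6a promoter in all 4 genotypes and ranked at the 67.6th percentile in WT, 86.2nd in Ep300Δ/Δ, 89.6th in Tet2-/- and 94.4th in Ep300Δ/Δ Tet2-/- cells.

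Kat6b (chr14:21481434-21672478, plus strand) had an H3K27ac region at an internal start, 19162 to 19771 bp from its first start, in all 4 lists, at the 97.2nd, 95.1st, 93.9th and 79.5th percentiles in the same order of genotypes. The region beside it, 18444 to 18995 bp, was at the 47.6th percentile in WT and the 0.304th in Ep300Δ/Δ and was not called in either Tet2-deficient list. No H3K27ac region was gained or lost at Kat6b on either background, but the Ep300Δ/Δ peak in the second region had a −log10 q of 0. With only peaks of q at most 0.05, that region was lost from WT to Ep300Δ/Δ, and the lost regions on this background went from 1 to 2 at Kat2a and from 1 to 2 at Ncoa3. Kat6b H3K4me1 peaks numbered 32 in WT, 27 in Ep300Δ/Δ, 32 in Tet2-/- and 26 in Ep300Δ/Δ Tet2-/- cells. As regions, 9 of 32 were lost and 3 of 26 gained on the WT background, against 35.4% and 23.8% near all genes. On the Tet2-/- background 11 of 30 were lost and 5 of 24 gained, against 30.1% and 23.3%. Its 3 regions lost on both backgrounds were all intronic, where 5.44% of H3K4me1 regions near all genes had this pattern.

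Ncoa3 (chr2:165992636-166073242, plus strand) was the gene with an H3K27ac region gained on both backgrounds. The region lay 493 to 1124 bp into the gene, in intron 1, and was called at 3.91-fold (20.1st percentile, −log10 q of 3.48) in Ep300Δ/Δ and at 3.8-fold (9.84th percentile, −log10 q of 5.87) in Ep300Δ/Δ Tet2-/- cells, and in neither Ep300-intact list. It was the 1 such region among the 39 H3K27ac regions of the 9 genes other than Ep300, 2.56% (0.0649% to 13.5%), where 0.729% of H3K27ac regions near all protein-coding genes had this pattern. None of the 39 was lost on both, 0% (0% to 9.03%), an interval that covers the 6.38% near all genes. Both peaks of the Ncoa3 region stood low in their lists. A second promoter region, 1287 to 1495 bp, was gained in Ep300Δ/Δ only, at 4.31-fold. With H3K27ac peaks limited to a −log10 q of at least 5, none of 2 Ncoa3 regions was gained from WT to Ep300Δ/Δ and 2 of 4 were gained from Tet2-/- to Ep300Δ/Δ Tet2-/-. These 2 were the region at 493 to 1124 bp and one at 42964 to 43473 bp. The latter had a peak in both lists and counted as gained because its Tet2-/- peak, at a −log10 q of 1.3, was removed. The region gained without this limit at 38424 to 39086 bp (−log10 q of 3.39) dropped out.

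The established Ncoa3 promoter peak, -517 to -110 bp, was called in all 4 lists, at the 67.9th percentile in WT, 69.5th in Ep300Δ/Δ, 42nd in Tet2-/- and 26.4th in Ep300Δ/Δ Tet2-/- cells. The other region gained on the Tet2-/- background was intronic, 38424 to 39086 bp into the gene, at 3.52-fold, and was also called in WT and Ep300Δ/Δ cells. The 1 lost region, from WT to Ep300Δ/Δ, lay at an internal start, 52982 to 53357 bp, at 4.02-fold. Of its H3K4me1 regions, 11 of 33 were gained and 5 of 27 lost from WT to Ep300Δ/Δ, against 23.8% and 35.4% near all genes. On the Tet2-/- background, 10 of 34 were gained and 5 of 29 lost, against 23.3% and 30.1%. Of these, 3 were gained on both backgrounds and 2 lost on both.

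**Figure D3:**
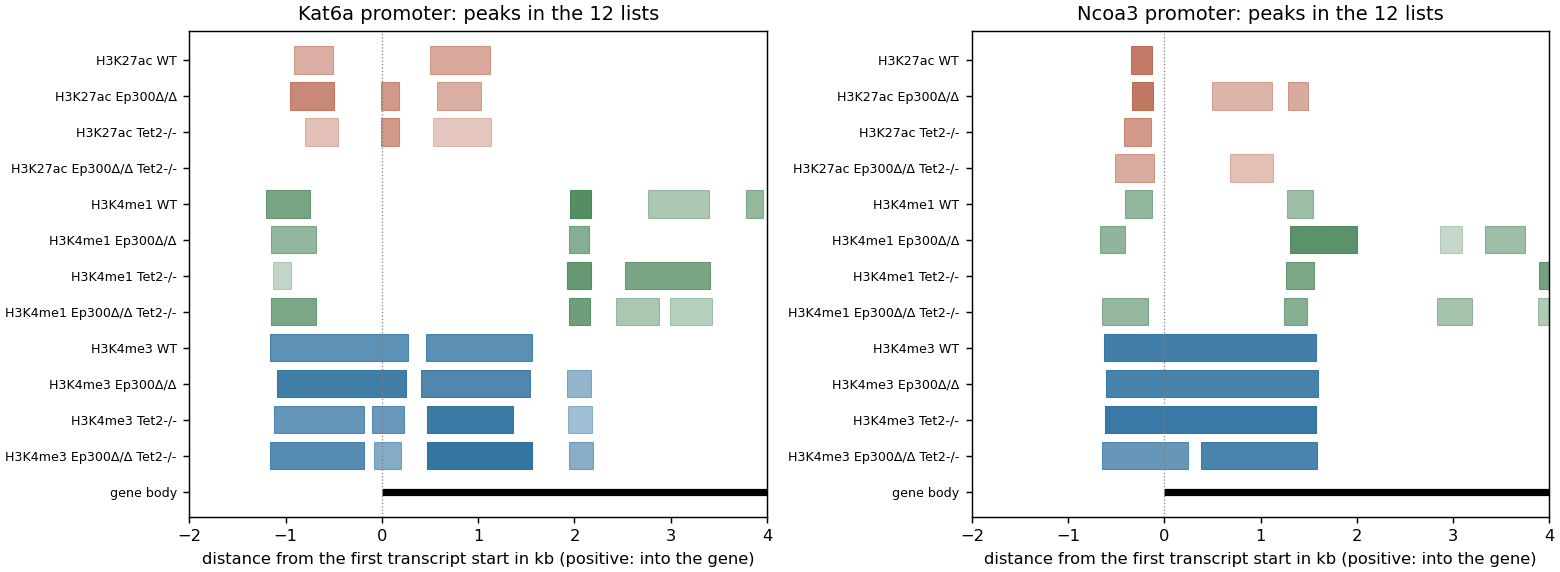
Peaks of the 12 lists around the first start of Kat6a (left) and Ncoa3 (right), by distance in kb, with darker blocks for a higher percentile in the list. The Kat6a H3K27ac row of Ep300Δ/Δ Tet2-/- cells is empty above full H3K4me3 rows, and at Ncoa3 a block 493 to 1124 bp into the gene appears in the 2 Ep300-deleted H3K27ac rows only.

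Over the 9 genes other than Ep300, the share of H3K27ac regions gained had an interval that covered the share near all genes on both backgrounds. From WT to Ep300Δ/Δ, 4 of 31 regions were gained, 12.9% (95% interval 3.63% to 29.8%), against 12.2% of all regions within 20 kb of protein-coding genes. From Tet2-/- to Ep300Δ/Δ Tet2-/-, 2 of 23 were gained, 8.7% (1.07% to 28%), against 14.1%. The gained regions lay in the windows of 3 of 9 genes (Kat2a, Kat6a and Ncoa3) on the first background and of 1 of 9 (Ncoa3) on the second, where 22.3% and 22.2% of protein-coding gene windows with any H3K27ac had a gain. At promoters, 4 of 27 regions, 14.8% (4.19% to 33.7%), and 1 of 19, 5.26% (0.133% to 26%), were gained, against 9.53% and 9.94% of promoter regions near all genes, and outside them 0 of 4 and 1 of 4, against 21.7% and 30.8%. Per Mb of window, 3.93 and 1.96 regions were gained, against 1.61 and 1.59 in the windows of all protein-coding genes. These windows also held more H3K27ac regions of any kind, 38.3 per Mb against 22.2. With both lists cut to the size of the shorter one, gains outnumbered losses, at 7 of 31 regions (22.6%) gained against 1 of 25 lost on the WT background and 4 of 23 (17.4%) against 2 of 21 on the Tet2-/- background. At that setting 18% and 20.7% of regions near all genes were gained, and 25.1% and 22.8% lost. The 4 peaks gained in Ep300Δ/Δ cells had a −log10 q of 2.69 to 4.38. None of the 6 ranked above the 42.5th percentile of its list, while the median shared region ranked at the 55.5th and the 49.3rd.

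The share of H3K27ac regions lost was below the share near all genes on both backgrounds, and its interval excluded that share on the WT background, a result that depended on the setting, but not on the Tet2-/- background. The difference between the backgrounds was not tested. On the WT background, 6 of 33 regions were lost, 18.2% (6.98% to 35.5%), where the figure for all regions near genes was 37.7%. On the Tet2-/- background, 8 of 29 were lost, 27.6% (12.7% to 47.2%), against 36.3%. The size of the share moved with the setting, and so did that near all genes. At −log10 q of at least 5, 34.6% (17.2% to 55.7%) were lost on the WT background, against 43.9% near all genes, and 13.6% (2.91% to 34.9%) on the Tet2-/- background, against 32.5%. With lists cut to the shorter size, 4% (0.101% to 20.4%) were lost, against 25.1%, and 9.52% (1.17% to 30.4%), against 22.8%. Among regions with a peak above the 50th percentile of its list, none of 18 and none of 14 were lost, against 11.7% and 11.3%. With q of at most 0.05, a setting chosen after seeing the data, the WT-background share was 27.3% (13.3% to 45.5%), against 39.9%. On the WT background the interval excluded the share near all genes with the lists cut to the shorter size but not under the other 3 of these settings. The 9 genes' regions were mostly at promoters, where losses were fewer genome-wide. Within promoters, 4 of 27 regions of the 9 genes were lost on the WT background, 14.8% (4.19% to 33.7%), against 25.8% of promoter regions near all genes, and 8 of 26 on the Tet2-/- background, 30.8% (14.3% to 51.8%), against 26.4%. Both intervals cover the background. Outside promoters, 2 of 6 and 0 of 3 were lost, against 62.6% and 62.7%. Per Mb of window, 5.89 and 7.86 regions were lost, against 7.04 and 5.53 in the windows of all protein-coding genes.

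**Figure D4:**
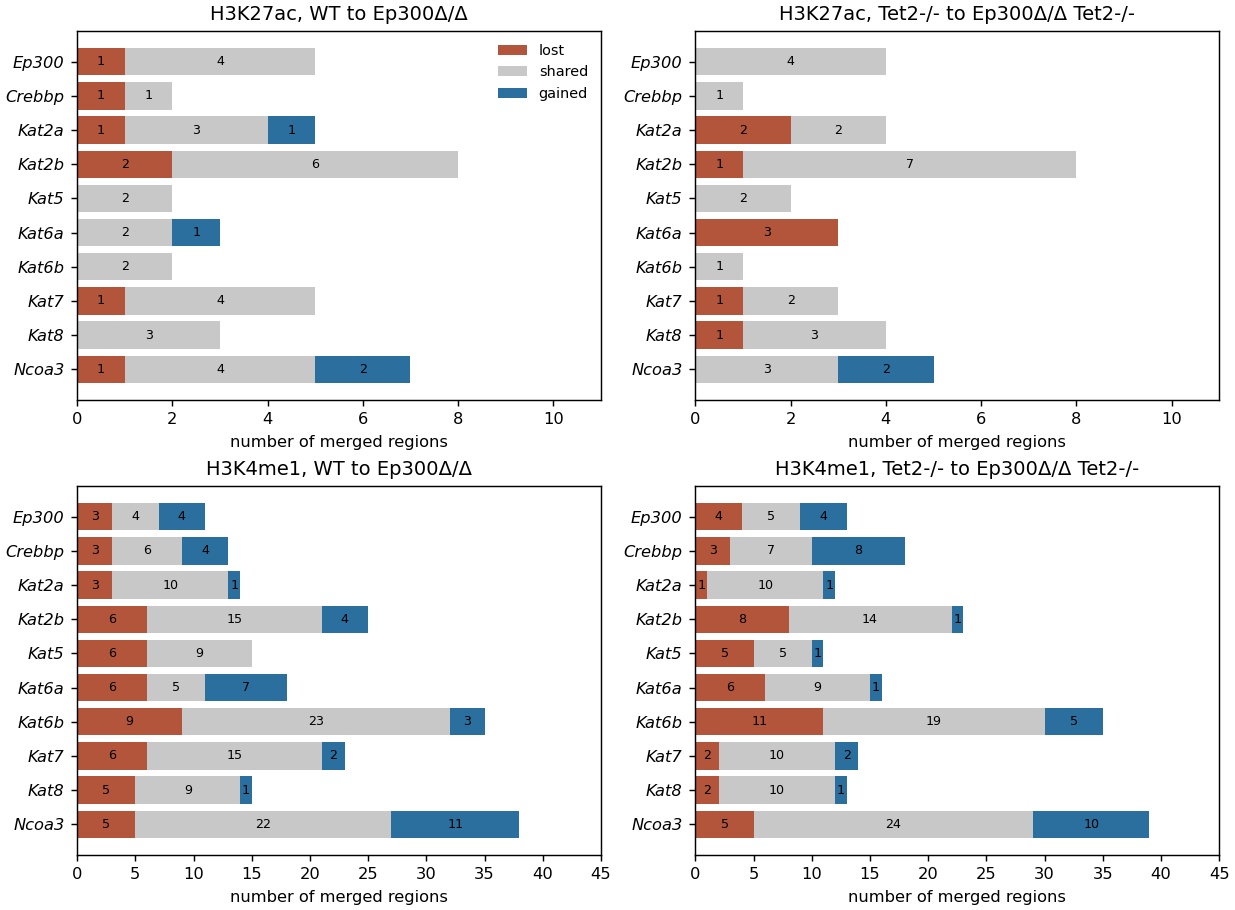
Number of merged H3K27ac (top) and H3K4me1 (bottom) regions lost, shared and gained in the window of each gene, from WT to Ep300Δ/Δ (left) and from Tet2-/- to Ep300Δ/Δ Tet2-/- (right). Gained H3K27ac is absent at Crebbp in both comparisons and present at Ncoa3 in both, and Kat6a loses all 3 regions on the Tet2-/- background. Near all genes, 36.3% of H3K27ac regions were lost on that background.

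H3K4me1 changed at more regions, and over all places the interval of each share covered the background. From WT to Ep300Δ/Δ, 33 of 147 regions of the 9 genes were gained, 22.4% (16% to 30.1%), against 23.8%, and 49 of 163 were lost, 30.1% (23.1% to 37.7%), against 35.4%. From Tet2-/- to Ep300Δ/Δ Tet2-/-, 30 of 138 were gained, 21.7% (15.2% to 29.6%), against 23.3%, and 43 of 151 were lost, 28.5% (21.4% to 36.4%), where all regions near genes gave 30.1%. Over the 4 lists together, 81 of the 213 H3K4me1 regions (38%) were called in every genotype, against 35.4% near all genes, 7 (3.29%) were gained on both backgrounds, against 2.31% near all genes, and 13 (6.1%) lost on both, against 5.44%. The 7 gained lay at Ncoa3 (3 regions), Crebbp, Kat6a, Kat6b and Kat8 (1 each). The 13 lost lay at Kat2b and Kat6b (3 each), Kat6a and Ncoa3 (2 each), and Kat2a, Kat5 and Kat8 (1 each). At promoters, 9 of 67 regions, 13.4% (6.33% to 24%), and 7 of 60, 11.7% (4.82% to 22.6%), were gained, against 22.3% and 23.5% of promoter regions near all genes. The second interval does not cover its background. Promoter losses were 18 of 76, 23.7%, and 10 of 63, 15.9%, against 29.3% and 24.5%. Outside promoters, 24 of 80 regions, 30%, and 23 of 78, 29.5%, were gained, against 25.4% and 23.1%, and 31 of 87, 35.6%, and 33 of 88, 37.5%, were lost, against 40.8% and 34.7%. Per Mb of window, 32.4 and 29.5 H3K4me1 regions were gained, against 12.4 and 12 over all protein-coding windows, and 48.1 and 42.2 were lost, against 21.7 and 17. The density of all H3K4me1 regions, changed or not, was 209 per Mb against 81.6.

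For H3K4me3, the interval of each share again covered the background. On the WT background, 4 of 32 regions were gained, 12.5% (3.51% to 29%), against 10.6%, and 3 of 31 were lost, 9.68% (2.04% to 25.8%), against 14.6%. On the Tet2-/- background, 3 of 35 were gained, 8.57% (1.8% to 23.1%), against 8.84%, and 5 of 37 were lost, 13.5% (4.54% to 28.8%), against 12.7%. Of the 39 H3K4me3 regions over all 4 lists, 27 (69.2%) were called in every genotype, against 65.8% near all genes, 1 (2.56%) was gained on both backgrounds, against 1.45% near all genes, and 3 (7.69%) were lost on both, against 2.91%. Per Mb, 3.93 and 2.95 were gained, against 1.62 and 1.46, and 2.95 and 4.91 lost, against 2.33 and 2.19, where all H3K4me3 regions numbered 38.3 per Mb against 19.1. No lost region was at the promoter of any of the 10 genes. The 3 regions lost on both backgrounds were 1 at the Trap1 promoter near Crebbp and 2 within Kat6b, and the 1 gained on both was at the promoter of Sulf2, downstream of Ncoa3.

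**Figure D5:**
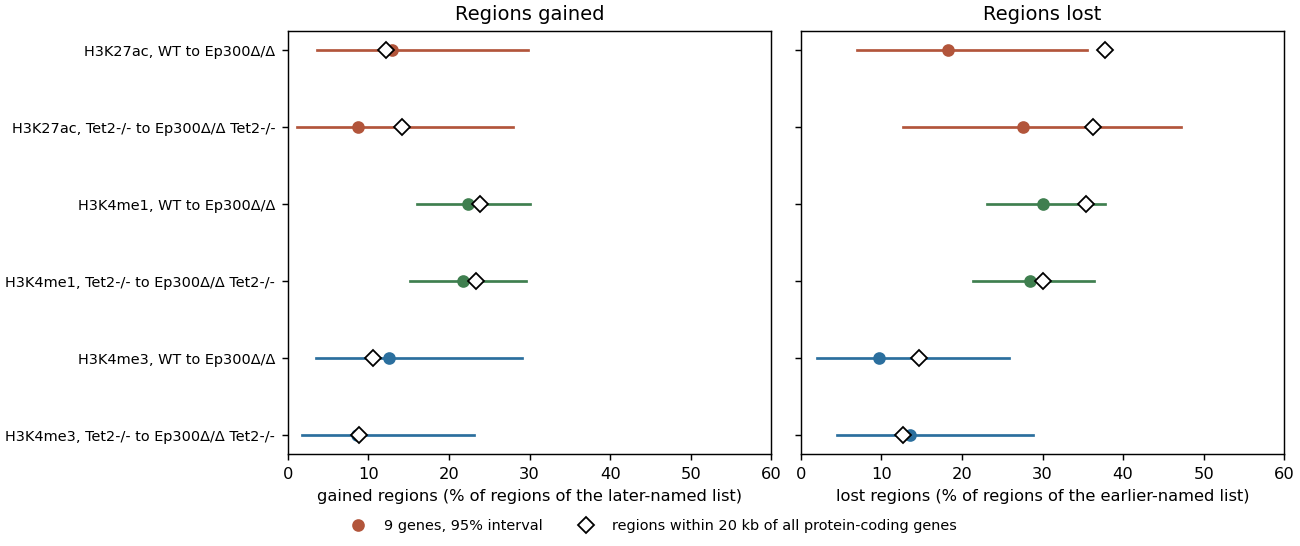
Share of regions gained (left) and lost (right) in the windows of the 9 genes other than Ep300, with exact 95% intervals for counting error, beside the share over all regions within 20 kb of protein-coding genes (diamonds). The diamond lies inside the interval in every row but H3K27ac lost from WT to Ep300Δ/Δ, where 37.7% lies above the upper bound of 35.5%.

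Partners of these enzymes mostly kept their promoter acetylation as well. Promoters were read for 74 genes of the SAGA, ATAC, TIP60, MOZ, MORF, HBO1, MSL and NSL complexes, p160 coactivators, other acetyltransferases and proteins that bind CBP and p300. H3K27ac was called at 70 of the 74 promoters in WT, 71 in Ep300Δ/Δ, 69 in Tet2-/- and 64 in Ep300Δ/Δ Tet2-/- cells, and H3K4me3 at all 74 in each genotype. The shares over all protein-coding genes were 43.1% to 47.3% for H3K27ac and 61.9% to 63.2% for H3K4me3. On the WT background, 2 of 71 calls were gained and 1 of 70 lost, against the 3.08% and 7.96% of all protein-coding genes. On the Tet2-/- background, 1 of 64 was gained and 6 of 69 were lost, against 3.35% and 10.2%. At −log10 q of at least 5, no partner call was gained on either background and more were lost on the WT background.

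Cited4, whose product binds CBP and p300, was the 1 partner gene with a change in the same direction on both backgrounds. Its promoter call was lost at 3.89-fold (12.2nd percentile) from WT to Ep300Δ/Δ and at 4.85-fold (29.6th percentile) from Tet2-/- to Ep300Δ/Δ Tet2-/-. The lost peaks were different, at chr4:120667245-120667578 and chr4:120666604-120666806, and did not overlap. Tada2a, for an adaptor subunit of the ATAC complex, was gained at 4.24-fold from WT to Ep300Δ/Δ and lost at 9.36-fold from Tet2-/- to Ep300Δ/Δ Tet2-/-. On the Tet2-/- background Jade3, for a scaffold of HBO1 complexes, was lost at 7.51-fold and Crtc1, for a coactivator of CREB, at 5.43-fold. Crtc3, its relative, was gained at 4.99-fold on the WT background.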

How the data were processed

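ChIP-seq peak lists of H3K27ac, H3K4me1 and H3K4me3 from mouse Lin- bone marrow cells were used, 1 per genotype and mark. The 8 total H3 and H3K27me3 samples were not analysed here. Per the labels and the study's methods, the authors used cutadapt (1.15) for trimming, BWA (0.7.13) for alignment to mm10 and Picard for duplicates, and called narrow peaks with MACS2 (2.1.1.20160309) against H3 at q below 0.05, keeping peaks found in pseudo-replicates. Drosophila chromatin was added as a spike-in, and its use in the lists is not given in the sources used here. The labels give single-end and the methods paired-end 75-bp reads.

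The deposited columns are a fold enrichment (a ratio over H3), a −log10 p-value, a −log10 q-value and the summit. These were used only for ranks within a list and for thresholds. Read depth is unknown. Peaks of 2 lists were merged, presence requiring an overlap of 1 bp, in Python with numpy and pandas. The region code was tested on 20 simulated pairs of lists, of which 20 were recovered, and against bedtools. Gene bodies came from GENCODE M21 on GRCm38, the mm10 assembly, with 20 kb on each side. Shares carry exact Clopper-Pearson intervals at 95%. No test between genotypes is possible with 1 library each.

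The 10 genes, the 74 partner genes and the markers were chosen with earlier results of these data known. H3K27ac regions named in the text were those gained or lost on both backgrounds and, per gene and background, the strongest gained and the strongest lost by fold. Partner genes named were those changed alike on both backgrounds and up to 4 others by fold. Other regions were named for context after their values were seen.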

Additional observations from a re-analysis of the deposited data

Results flagged for a closer look

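Some genes had opposite changes in peak number after Ep300 deletion on the 2 backgrounds, and these differences were not tested, since each value is 1 library. Kat6a H3K27ac peaks changed by 1 from WT to Ep300Δ/Δ and by -3 from Tet2-/- to Ep300Δ/Δ Tet2-/-, which differ by 4 peaks. At −log10 q of at least 5 the directions were not opposite, with 1 Kat6a region lost and 0 gained on each background, and with the 500 bp setting 0 were gained or lost on the WT background and 1 was lost on the Tet2-/- background. Kat8 H3K27ac peaks changed by 2 and by -2, also 4 apart, although no Kat8 region was gained or lost from WT to Ep300Δ/Δ, where longer peaks were called as shorter ones. Kat6a H3K4me1 peaks changed by 1 and by -4, which are 5 apart. Kat7 H3K4me1 peaks changed by -5 and by 2, which are 7 apart, and Kat7 H3K4me3 peaks by 1 and by -1, which are 2 apart. No Kat7 H3K4me3 region was gained or lost on either background, and its H3K4me1 regions numbered 12 in both Tet2-deficient lists.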

How the results depend on the processing

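No paired analysis was possible because each genotype and mark has 1 library, all numbered replicate 1, and no library could be left out. The 12 shares were recomputed under 9 alternatives and the 4 partner counts under 3, one of each chosen after seeing the data (peaks with q of at most 0.05). Of these 120 values, 88 stayed within the main interval or within 1.5 times the main count. The others are given here in the order WT to Ep300Δ/Δ, then Tet2-/- to Ep300Δ/Δ Tet2-/-. With regions limited to peaks above the 50th percentile of their list, gained and lost H3K27ac were 0% on both backgrounds, as were gained and lost H3K4me3, whereas gained H3K4me1 was 12% and 14.3% and lost H3K4me1 18.6% and 13.9%. With peaks of −log10 q of at least 5, gained H3K27ac was 0% on the WT background, lost H3K4me1 was 50.5% and 37.3%, and lost H3K4me3 was 3.12% on the Tet2-/- background. With both lists cut to the shorter size, lost H3K27ac was 4% and 9.52%. With a peak within 500 bp counted as present, lost H3K4me1 was 21% on the WT background and gained H3K4me1 14% on the Tet2-/- background. Outside promoters, where 2 to 5 regions remained for H3K4me3 and 3 or 4 for these H3K27ac shares, gained H3K27ac was 0% on the WT and lost H3K27ac 0% on the Tet2-/- background, gained H3K4me3 was 0% and 50%, lost H3K4me3 50% and 60%, and lost H3K4me1 37.5% on the Tet2-/- background. Partner genes at −log10 q of at least 5 numbered 0 gained on both backgrounds and 7 lost on the WT background. With q of at most 0.05, 2 were lost on the WT background, and with lists cut to the shorter size, 2 were gained on the Tet2-/- background. Of the 88, 13 shares stayed within the main interval but moved over 1.5 times. Gained H3K27ac was 22.6% and 17.4% with lists cut to the shorter size, and on the Tet2-/- background 16.7% in gene bodies alone, 25% outside promoters and 13.3% for regions nearest to the gene's own start. Lost H3K27ac was 34.6% and 13.6% at −log10 q of at least 5, 33.3% outside promoters on the WT background and 14.3% with the 500 bp setting on the Tet2-/- background. Gained H3K4me3 was 7.69% with the 500 bp setting on the WT background, and on the Tet2-/- background 3.12% at −log10 q of at least 5, 5.26% in gene bodies alone and 4.76% for regions nearest to the gene's own start. The H3K27ac counts of single genes moved in 81 of 360 recomputed values. Crebbp had 0 gained regions in all, but no more than 1 region was there to be called, and 0 under 3 of the settings. The cause of these moves was not tested. Some alternatives admit fewer peaks, and the 500 bp setting changes only what counts as present. Depth, unknown here, limits which weak peaks were called.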
